A study of Mus musculus with 15 samples.

Results

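Germ cells of mice injected with the bromodomain inhibitor JQ1 were compared, stage by stage, with those of mice that received vehicle and were killed at the same time. The comparison takes the 3 libraries titled as treatment (T) and the 3 titled as vehicle-treated (VC-T), 6 of the 15 libraries of the series, and cells with at least 500 genes, at least 1000 unique molecular identifiers (UMIs) and under 30% mitochondrial UMIs. These were 25696 of 76494 cells, 12402 from T and 13294 from VC-T. Single-cell RNA-seq was made with 10x Genomics 3′ chemistry from dissociated testes of DBA/2J males, 1 testis of 1 mouse per library, with nothing pooled. T males received JQ1 at 50 mg/kg by daily intraperitoneal injection for 3 wk, VC-T males received the carrier alone (DMSO in cyclodextrin) for the same time, and both groups were 10 wk old at collection. Untreated males (UC, n = 3) were 15 wk old by their labels. They are given as a background beside some values and took the place of VC-T 2-3 in 1 alternative fit. Vehicle males of the recovery arm (VC-R, n = 3), 16 wk old, received the carrier for 3 wk and were kept for 6 wk after it. UC and VC-R built the reference on which stages were set.

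JQ1 occupies the acetyl-lysine pocket of BET bromodomains. BET proteins, among them the testis-specific BRDT, bind acetylated histones and help RNA polymerase II leave its pause by way of the kinase P-TEFb. BRDT is present from meiotic prophase on, and in spermatids it takes part in the exchange of histones for transition proteins and then protamines. Spermatogenesis runs from spermatogonia through meiotic spermatocytes to round spermatids, which then elongate.

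Total UMIs per library were 27392194, 20022735 and 9673587 in T 1 to T 3 and 18319704, 28341295 and 17460908 in VC-T 1 to VC-T 3, and median UMIs per cell lay between 2492 and 4295.5. Any pair of these libraries shared between 1 and 9 cell barcodes, at most 0.237% of the smaller library. Stages were set on a reference of 21354 cells from untreated mice and from the vehicle mice of the recovery arm, so that the libraries compared did not shape them. Each cell of T and VC-T then took the class most frequent among its nearest reference cells. Classes were named from transcripts alone as spermatogonia-like, early spermatocyte-like, pachytene-like, late meiotic-like, early and later round spermatid-like and late spermatid-like, and the suffix is left out for brevity. In spermatogonia, the summed level of the spermatogonial markers was 1886 to 2212 CPM in T and 1958 to 2347 CPM in VC-T, where CPM stands for UMIs of a gene scaled to a fixed stage total. Pachytene markers in pachytene spermatocytes summed to 3693 to 3815 CPM in T and 3311 to 3917 CPM in VC-T.

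Late spermatids were almost absent from T and from 1 vehicle library. They numbered 1, 2 and 2 cells in T 1 to T 3, or 0.0183%, 0.0531% and 0.0845% of germ cells. VC-T 1 had 0 of 5495 germ cells, which allows a share of up to 0.0546%, while VC-T 2 had 766 (25.6%) and VC-T 3 had 1182 (39.8%). Cells near 2 reference clusters that stayed unnamed are outside these shares. They were 0.0265 to 0.37% of all cells in T, 0.0182% in VC-T 1 and 6.05% and 10.2% in VC-T 2 and VC-T 3, and the larger of these clusters scored highest for the late spermatid markers. For late spermatids all T libraries lay below VC-T 2 and VC-T 3 and above VC-T 1, and the difference of -21.8 percentage points over all 6 libraries had an exact two-sided permutation p of 0.4. UC had 48.6 to 58.3%. VC-T 1 also stood apart in its somatic cells, with 7 Sertoli-like and 1 myoid-like cell and 0 cells of the Leydig-like and macrophage-like classes, against 292 and 120 Sertoli-like cells in VC-T 2 and VC-T 3 and 39, 5 and 37 in T. Each comparison below is given against all 3 vehicle libraries and against VC-T 2 and VC-T 3 alone.

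The position of the cells along pseudotime, the rank of the nearest reference cells from 0 to 100, showed where T ended. The 99th percentile of germ cells lay at 41.8, 40.0 and 40.1 in T, at 39.7 in VC-T 1 and at 84.7 and 82.8 in VC-T 2 and VC-T 3. Beyond a rank of 50 lay at most 0.127% of germ cells in T, none in VC-T 1, and 25.4% and 39.8% in the other vehicle libraries. In T and in VC-T 1 the cells thinned out within the later round spermatids.

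**Figure D1:**
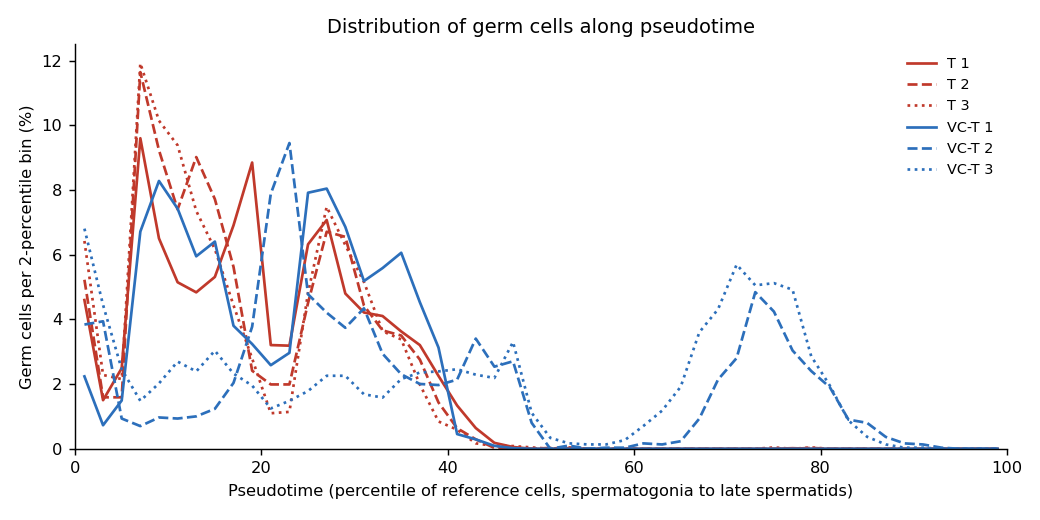
Germ cells of each library (y axis, percent of the germ cells of that library) by pseudotime rank in bins of 2 (x axis) for T 1 to T 3 and VC-T 1 to VC-T 3. The 99th percentiles of T and VC-T 1 lie between 39.7 and 41.8, those of VC-T 2 and VC-T 3 at 84.7 and 82.8.

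Among the earlier stages, later round spermatids were the only class whose share did not overlap between T and all 3 vehicle libraries. They made up 7.46%, 5.01% and 3.80% of germ cells in T and 8.08%, 15.0% and 15.6% in VC-T, or 5.42% ± 1.86 against 12.9% ± 4.16 (SD, n = 3 each). An exact two-sided permutation test gave p = 0.1, which 3 against 3 libraries cannot go below, and 0.56 after Benjamini-Hochberg adjustment over 7 stages. With late spermatids left out of the denominator the ranges were also apart (adjusted p = 0.6 in the exact permutation test).

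Early round spermatids differed little among the treated mice, at 31.4%, 30.3% and 31.5% of germ cells, and ranged from 12.4% to 41.9% in VC-T. The ratio of later to early round spermatids was 0.237, 0.165 and 0.121 in T. It was 0.193 in VC-T 1, inside the range of T, and 0.810 and 1.26 in VC-T 2 and VC-T 3, with 0.931 to 1.23 in UC. Round spermatids of both kinds per spermatocyte were 0.702, 0.608 and 0.627 in T and 1.06, 0.907 and 1.19 in VC-T, so that on this ratio VC-T 1 stood with the other vehicle libraries. UC had 0.853 to 1.72. This ratio was picked with its values in view and was not tested.

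Pachytene spermatocytes were 31.6%, 45.8% and 45.9% of germ cells in T and 35.3%, 4.44% and 11.8% in VC-T (exact two-sided permutation p = 0.2 over the 6 libraries). Early spermatocytes, the leptotene to zygotene-like class with markers such as Dmc1 and Prdm9, were 23, 12 and 13 cells in T, and 17 in VC-T 1, or 0.309 to 0.549% of germ cells in these libraries, against 4.11% and 4.25% in VC-T 2 and VC-T 3. In both classes VC-T 1 lay inside or close to the range of T, apart from VC-T 2 and VC-T 3. Late meiotic spermatocytes were 23.3%, 11.9% and 9.89% in T and 11.7%, 28.3% and 7.35% in VC-T, with overlapping ranges (exact permutation p = 0.9). Spermatogonia were 5.75%, 6.55% and 8.20% in T and 2.73%, 4.11% and 8.86% in VC-T, also overlapping (exact permutation p = 0.5).

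**Figure D2:**
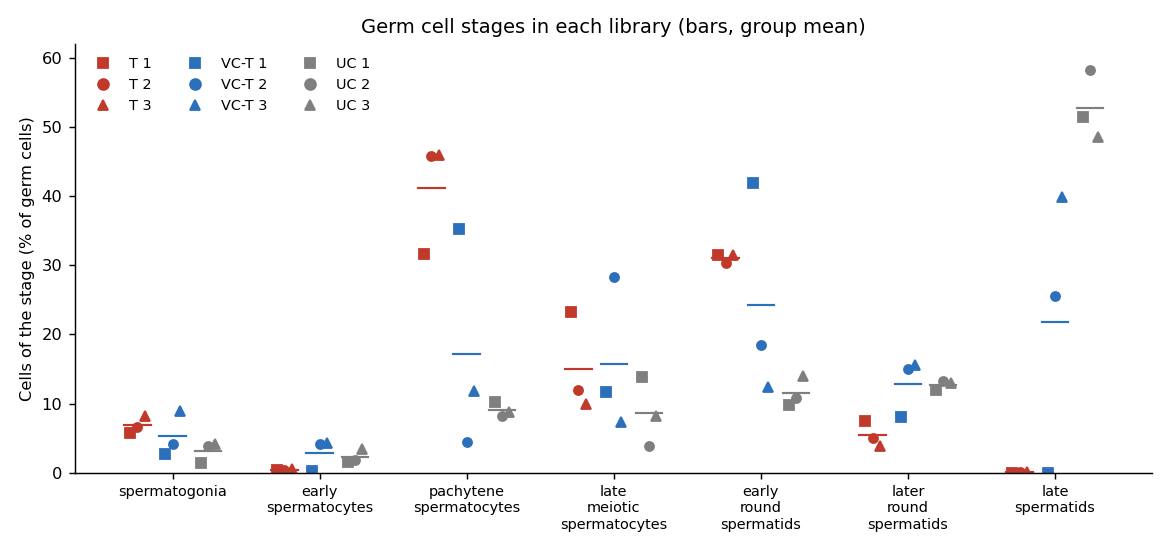
Share of germ cells in each stage (y axis, percent) for every library of T, VC-T and UC, with a bar at the group mean. Later round spermatids of T (3.80 to 7.46%) lie below all 3 VC-T libraries (8.08 to 15.6%), and late spermatids are at or near 0 in T and in VC-T 1.

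For each stage the UMIs of a library were added up and tested with edgeR (quasi-likelihood, Benjamini-Hochberg adjustment). A gene counted as changed when its adjusted p was below 0.05 and its log2 fold change was above 1 or below -1. In such sums fewer cells of a subtype and less RNA per cell cannot be told apart. Against VC-T 1-3, 26 of 12502 genes changed in pachytene spermatocytes (0.208%), 15 higher (0.12%) and 11 lower (0.088%) in T, and 105 of 12108 changed in early round spermatids (0.867%), 40 higher (0.33%) and 65 lower (0.537%). None changed in the other stages. There, edgeR's quasi-likelihood test gave an unadjusted p under 0.05 for 659 of 8222 genes in spermatogonia, 54 of 433 in early spermatocytes, 796 of 9751 in late meiotic spermatocytes and 1967 of 9065 in later round spermatids. DESeq2 called 0, 0, 2 and 155 genes in these stages. Without T 2, edgeR called 0 genes in early round spermatids, and without T 3 it called 2 in pachytene spermatocytes.

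Against VC-T 2-3 far more genes passed. The counts were 264 of 9297 in spermatogonia (2.84%), 39 of 675 in early spermatocytes (5.78%), 870 of 12038 in pachytene spermatocytes (7.23%) and 253 of 10487 in late meiotic spermatocytes (2.41%). Round spermatids had 301 of 11657 (2.58%) in the early and 2676 of 10371 (25.8%) in the later class. Leaving out VC-T 1 thus moved the count from 26 to 870 in pachytene spermatocytes, from 105 to 301 in early round spermatids and from 0 to 2676 in later round spermatids. Most of the changed genes were higher in T in spermatogonia, at 211 (2.27%) against 53 lower (0.57%), and in pachytene spermatocytes, at 682 (5.67%) against 188 (1.56%). Most were lower in late meiotic spermatocytes, where 6 were higher (0.0572%) and 247 lower (2.36%), and in early round spermatids, with 57 higher (0.489%) and 244 lower (2.09%). Early spermatocytes had 16 higher (2.37%) and 23 lower (3.41%), and later round spermatids 1051 higher (10.1%) and 1625 lower (15.7%). The balance moved with the way free RNA was subtracted. After subtraction of the level estimated for each library, 34 genes were higher and 335 lower in spermatogonia. In pachytene spermatocytes 243 were higher and 306 lower. That level rests on 50 late spermatid genes, which took at most 0.378% of UMIs in T and VC-T 1, and may be unreliable there. After subtraction of 10% of each library's overall profile, 121 were higher and 0 lower in spermatogonia. Under it pachytene spermatocytes had 879 higher and 72 lower, and early round spermatids 15 higher and 13 lower.

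**Figure D3:**
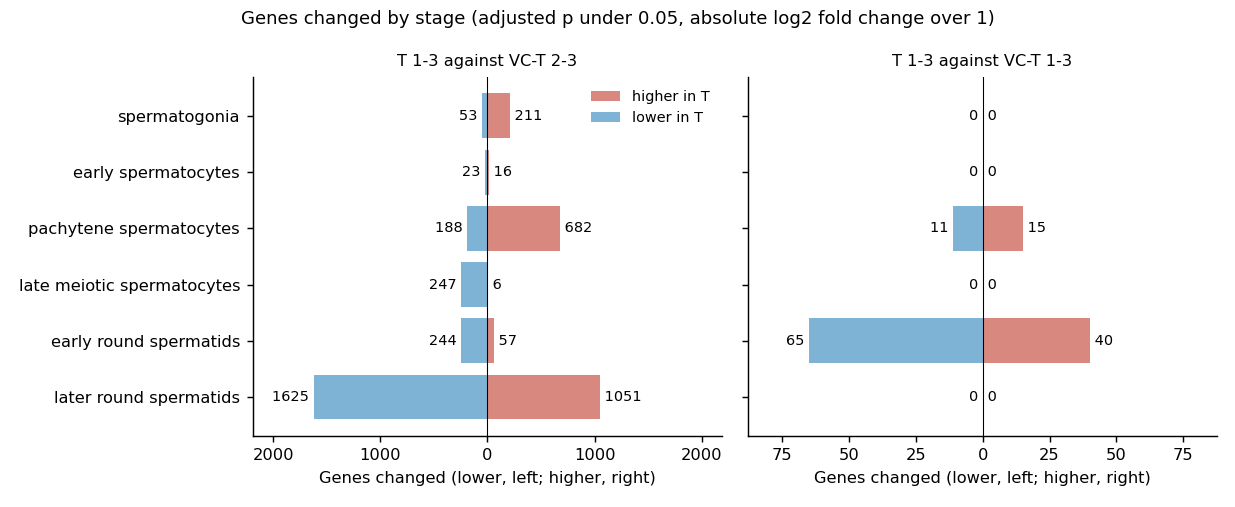
Number of genes changed in each stage, lower in T to the left and higher to the right, against VC-T 2-3 and against VC-T 1-3 (edgeR, with different x scales in the panels). Later round spermatids hold 2676 changed genes in the first panel and 0 in the second.

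VC-T 1 did not enter the fits against VC-T 2-3, and its levels could be set beside them. It lay nearer to the T mean than to the mean of VC-T 2-3 for 96.8% of the changed genes in late meiotic spermatocytes, 92.0% in spermatogonia, 89.2% in later round spermatids and 84.0% in pachytene spermatocytes. The share was 65.4% in early round spermatids, and 46.7% among those changed genes whose highest level in the reference lay outside late spermatids. The same share in UC 1 to UC 3 was 11.1%, 5.83% and 8.97% in later round spermatids, 32.4%, 28.6% and 24.4% in pachytene spermatocytes, and 20.6%, 26.6% and 22.6% in early round spermatids. It reached 50.8% in UC 3 in spermatogonia (28.4% and 23.1% in UC 1 and UC 2) and 52.6% in UC 2 in late meiotic spermatocytes (1.19% and 0.395% in UC 1 and UC 3).

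A small set of genes separated T from all 3 vehicle libraries, VC-T 1 included. All 26 genes called in pachytene spermatocytes and 98 of the 105 in early round spermatids had no overlap between T 1-3 and VC-T 1-3, as had 22.7% and 26.1% of all genes tested in these stages. With a mean of at least 15 CPM, 11 of these remained in pachytene spermatocytes, 5 higher and 6 lower in T, and 34 in early round spermatids, 10 higher and 24 lower. These genes were chosen after their values were seen. Of the 11, 10 were also called against VC-T 2-3, and of the 34, 31 were. When free RNA was subtracted at the level estimated for each library (29.6 to 40.8% in T and VC-T 1, 6.61% and 10.5% in VC-T 2 and VC-T 3), 6 genes passed in pachytene spermatocytes and 0 in early round spermatids.

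The annotated antisense transcript 4930478M13Rik had the largest fold change of the 11. Its level in pachytene spermatocytes was 7.89, 7.46 and 6.15 CPM in T and 39.8, 46.6 and 70.0 CPM in VC-T, with 43.1 to 48.3 CPM in UC. No T library came near a vehicle library, and the log2 fold change was -2.81 ± 0.23 (SE, adjusted p = 0.00267, edgeR). It lies on chromosome 15 at 100105234 to 100108161, minus strand (GRCm38/mm10, GENCODE vM21). The separation went on in late meiotic spermatocytes (3.58 to 8.92 CPM in T and 32.1 to 49.4 CPM in VC-T), in early round spermatids (2.23 to 5.29 and 20.1 to 40.5 CPM) and in later round spermatids (2.37 to 6.27 and 20.6 to 32.9 CPM). In early round spermatids it was called again (log2 fold change -2.68 ± 0.31, adjusted p = 0.0031, edgeR). Whether counting used strand is not given in the sources used here, so reads of an overlapping partner gene cannot be told apart from it.

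Vmn2r60, a gene of the vomeronasal pheromone receptor family (chromosome 7, 42107770 to 42196208), went the other way. It had 32.5, 27.3 and 30.8 CPM in pachytene spermatocytes of T and 6.61, 9.0 and 5.51 CPM in VC-T, a log2 fold change of 2.09 ± 0.18 (adjusted p = 0.00267, edgeR). The receptor family is large and its members are similar, so the counts may hold reads of other members. In late meiotic spermatocytes it had 4.32 to 7.67 CPM in T and 3.21 to 5.55 CPM in VC-T, which overlapped. For both 4930478M13Rik and Vmn2r60 the call in pachytene spermatocytes held under each of 15 other settings, the removal of any 1 library included.

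Adgrb3, which encodes an adhesion G protein-coupled receptor (chromosome 1, 25067476 to 25829707), had 65.6, 57.7 and 68.5 CPM in T and 24.2, 16.7 and 13.3 CPM in VC-T in pachytene spermatocytes (log2 fold change 1.74 ± 0.17, adjusted p = 0.00477, edgeR). Paics, an enzyme of purine synthesis (chromosome 5, 76951307 to 76967509), had 18.8, 17.2 and 18.2 CPM in T and 38.7, 40.9 and 40.8 CPM in VC-T (log2 fold change -1.15 ± 0.11, adjusted p = 0.00385). The T libraries lay apart from all vehicle libraries for both genes. Paics was also lower in early round spermatids, at 5.84, 4.01 and 7.43 CPM against 15.1, 16.8 and 17 CPM (log2 fold change -1.53 ± 0.24, adjusted p = 0.0111). Without T 3 the adjusted p of both genes in pachytene spermatocytes was 0.056.

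Uchl1, a deubiquitinase abundant in spermatogonia, rose in pachytene spermatocytes from 9.77 to 13 CPM in VC-T to 24.4 to 25.9 CPM in T (log2 fold change 1.10 ± 0.14, adjusted p = 0.0172, edgeR). Exph5, an effector of RAB27 in vesicle transport, rose from 8.75 to 9.59 CPM to 20.4 to 22.5 CPM (1.21 ± 0.14, adjusted p = 0.0165). Dusp19, a dual-specificity phosphatase, fell from 52.6, 75.9 and 85.2 CPM to 32.3, 36.7 and 36.5 CPM (-1.0 ± 0.17, adjusted p = 0.04). The summed level of the spermatogonial markers, of which Uchl1 is a member, was 65.4, 53.5 and 58.4 CPM in pachytene spermatocytes of T and 43.5, 28.7 and 31.8 CPM in VC-T. Uchl1, Adgrb3 and Paics peak in spermatogonia. Like this sum, Uchl1 and Adgrb3 were higher in T, while Paics was lower. The part of the marker level in these changes was not tested.

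In early round spermatids the ribosomal protein gene Rpl7a (chromosome 2, 26910764 to 26913318) had 100.05, 79.5 and 68.0 CPM in T and 196, 197 and 275 CPM in VC-T, with 225 to 253 CPM in UC. T lay wholly below the vehicle libraries, and the log2 fold change was -1.40 ± 0.16 (adjusted p = 0.0031, edgeR). The groups were also apart in later round spermatids (50.1 to 70.2 CPM and 168 to 178 CPM), where the gene passed only against VC-T 2-3, and in pachytene spermatocytes (382 to 406 CPM and 463 to 606 CPM), where it missed the fold threshold. Rps7, another ribosomal protein gene picked for its values, had 656 to 770.3 CPM in T and 1296 to 1573 CPM in VC-T in early round spermatids (log2 fold change -0.98 ± 0.11, adjusted p = 0.0031), just short of the fold threshold. All ribosomal protein genes together took 4.10 to 4.23% of the UMIs of early round spermatids in T and 4.11 to 5.4% in VC-T, which overlapped. They also overlapped in later round spermatids (3.20 to 3.44% and 3.21 to 3.84%). In pachytene spermatocytes they took 5.24%, 4.98% and 5.23% in T and 5.43%, 5.67% and 6.57% in VC-T, with no overlap. Rpl7a and Rps7 have processed pseudogenes with which the counting could share reads. Without T 2 the adjusted p of Rpl7a was 0.066.

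U2af1, the small subunit of the splicing factor that recognises the 3′ splice site (chromosome 17, 31647081 to 31658892), was higher in T, though not after subtraction of the estimated free RNA (log2 fold change -0.34). Early round spermatids had 39.2, 46.5 and 38.3 CPM in T and 19.5, 13.4 and 15.9 CPM in VC-T, a log2 fold change of 1.31 ± 0.17 (adjusted p = 0.00561, edgeR). Later round spermatids had 14.8, 21.3 and 12.5 CPM in T and 5.24, 2.84 and 6.74 CPM in VC-T, again with no overlap, and passed only against VC-T 2-3. Hspe1, the mitochondrial co-chaperonin, had 51.6, 54.7 and 43.1 CPM in T and 24.6, 22.5 and 25.7 CPM in VC-T in early round spermatids (1.05 ± 0.14, adjusted p = 0.00718). Serp2, a stress-associated endoplasmic reticulum protein, had 59.9, 68.1 and 72.5 CPM and 31.6, 26.9 and 38.9 CPM (1.06 ± 0.15, adjusted p = 0.00895). Each of these genes kept T and VC-T 1-3 apart, and without T 2 none of U2af1, Hspe1 and Serp2 passed.

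Artn, a ligand of the GDNF family, had 44.5, 45.1 and 47.2 CPM in early round spermatids of T and 26.1, 19.8 and 20.2 CPM in VC-T (log2 fold change 1.01 ± 0.15, adjusted p = 0.00902, edgeR). Mzt1, a factor of gamma-tubulin ring complexes, rose by 1.04 ± 0.15 and Utp4, of the small ribosomal subunit processome, by 1.01 ± 0.17 on the log2 scale. Among the genes that fell, Sec11c, a catalytic subunit of the signal peptidase, had 69.9, 58.7 and 54.6 CPM in T and 105, 114 and 164 CPM in VC-T (-1.03 ± 0.16, adjusted p = 0.0118). Rapgef5, an exchange factor for RAP GTPases, had 10.0, 11.6 and 10.8 CPM and 20.2, 26.9 and 23.0 CPM (-1.10 ± 0.19, adjusted p = 0.0143). The other genes that fell are mostly unnamed transcripts such as the antisense-annotated Gm15402, with 8.42, 9.21 and 12.6 CPM in T and 27.4, 37.3 and 31.7 CPM in VC-T. Of the 34 genes, 9 have their highest reference level in late spermatids.

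**Figure D4:**
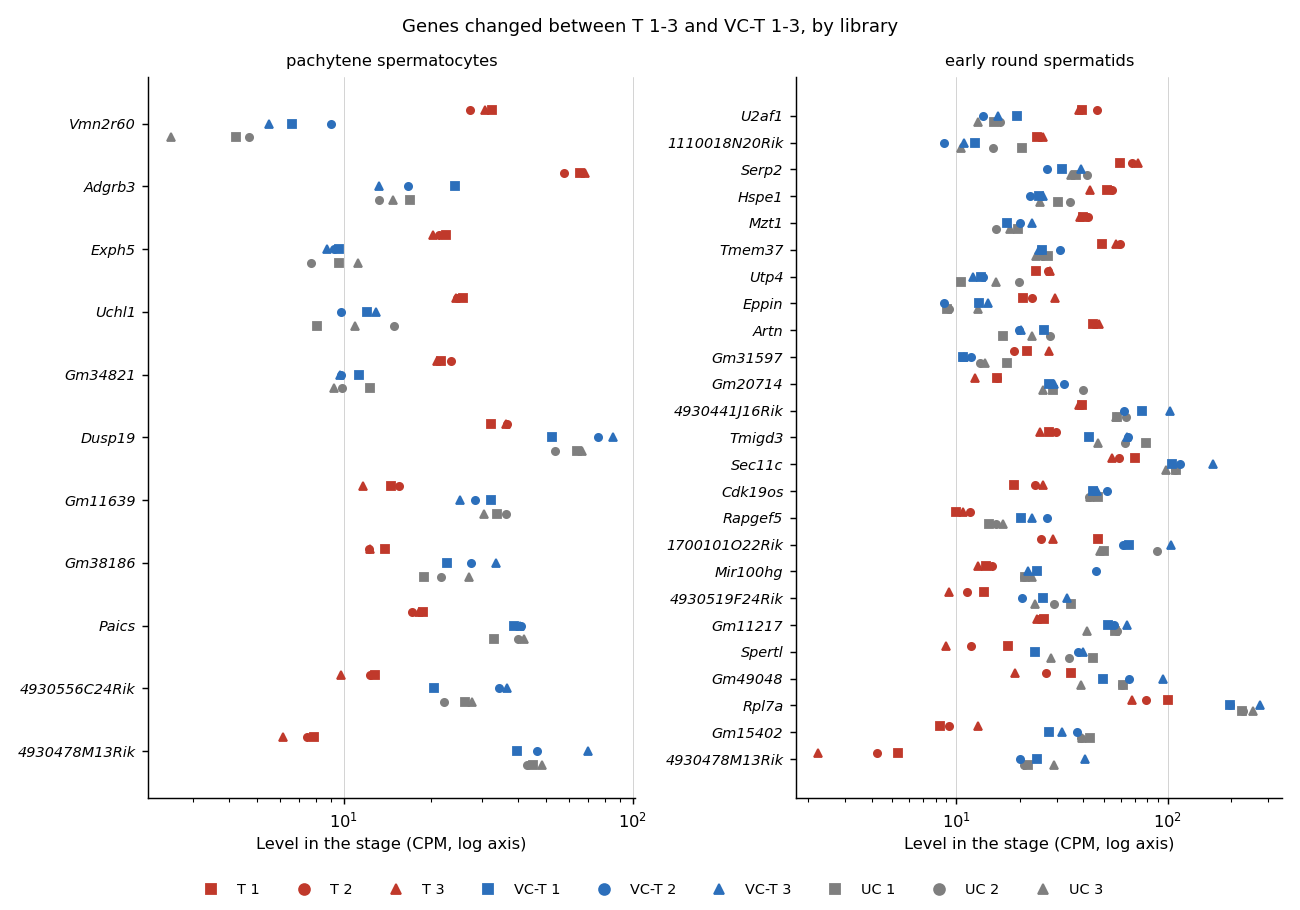
Levels (x axis, CPM on a log scale) of the genes called against VC-T 1-3 with at least 15 CPM and a reference peak outside late spermatids, 11 in pachytene spermatocytes and 25 in early round spermatids, in each library of T, VC-T and UC. By the rule that chose them T and VC-T do not overlap, and 4930478M13Rik shows the widest gap in pachytene spermatocytes (6.15 to 7.89 against 39.8 to 70.0 CPM).

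The same genes were read in the other stages. All 11 pachytene genes had the same sign in late meiotic spermatocytes, 9 of them with T and VC-T apart, where 12.6% of all genes tested were apart in either direction. In early round spermatids 9 of the 10 tested had the same sign and 7 were apart, beside 26.1% of all genes. In spermatogonia 1 of 4 tested had the same sign. Of the 34 genes of early round spermatids, 32 had the same sign in later round spermatids and 23 were apart, beside 20.9% of all genes. The same sign was seen for 28 of 28 tested in late meiotic spermatocytes, 8 of them apart, and for 29 of 31 in pachytene spermatocytes, 17 of them apart, beside 12.6% and 22.7%. The libraries are the same in every stage, so that these counts are no independent support.

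The protamine and transition protein genes, which package the DNA of the elongating spermatid, were far lower in T than in VC-T 2 and VC-T 3. Prm1 (chromosome 16, minus strand) had 1712, 552 and 1566 CPM in later round spermatids of T, 601 CPM in VC-T 1, and 34724 and 40865 CPM in VC-T 2 and VC-T 3. VC-T 1 lay inside the range of T. Against VC-T 2-3 the log2 fold change was -4.91 ± 0.25 (adjusted p = 4.25e-13, edgeR), and against VC-T 1-3 it was -4.37 ± 1.25 and did not pass (adjusted p = 0.197). Tnp1 (chromosome 1, 73015074 to 73015909) had 2276, 1196 and 1789 CPM in T, 1252 CPM in VC-T 1 and 16337 and 19042 CPM in the other vehicle libraries (-3.35 ± 0.15, adjusted p = 1.8e-13 against VC-T 2-3). Tsga8, a spermatid marker in the study, had 964, 963 and 884 CPM in T and 824, 900.4 and 1096 CPM in VC-T in the same cells, and the groups overlapped. Prm3, an acidic protamine relative, had 1706, 1293 and 1322 CPM in T, 1359 CPM in VC-T 1 and 2261 and 3054 CPM in VC-T 2 and VC-T 3 (-0.89 ± 0.11, adjusted p = 1.2e-06), under the fold threshold.

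The promoters of Prm1, Tnp1 and Prm3 are shown because these genes share a letter pattern that the other members of the list lack. The windows are the 250 bases before the RefSeq start (GRCm38.p6, minus strand, 5′ to 3′), at chr16:10796824-10797073 for Prm1, chr1:73015900-73016149 for Tnp1 and chr16:10790915-10791164 for Prm3. Capitals mark the match to TGACNTCA, searched on both strands, the letters of a cAMP response element of the kind that CREM binds.
Prm1: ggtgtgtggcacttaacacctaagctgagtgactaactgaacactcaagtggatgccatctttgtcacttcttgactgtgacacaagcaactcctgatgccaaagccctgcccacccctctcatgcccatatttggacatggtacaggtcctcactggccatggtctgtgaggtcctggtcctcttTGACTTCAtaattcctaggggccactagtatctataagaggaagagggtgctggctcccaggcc
Tnp1: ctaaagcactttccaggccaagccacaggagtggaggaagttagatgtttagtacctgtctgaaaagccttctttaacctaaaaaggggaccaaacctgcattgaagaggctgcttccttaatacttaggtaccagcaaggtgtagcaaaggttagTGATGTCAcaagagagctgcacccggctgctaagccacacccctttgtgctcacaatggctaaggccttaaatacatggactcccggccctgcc
Prm3: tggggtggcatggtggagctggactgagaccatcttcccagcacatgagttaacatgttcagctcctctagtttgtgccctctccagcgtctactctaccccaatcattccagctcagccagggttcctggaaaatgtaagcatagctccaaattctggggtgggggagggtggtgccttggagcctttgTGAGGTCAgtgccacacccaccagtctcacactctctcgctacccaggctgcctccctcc
The match reads TGACTTCA in Prm1, 64 to 57 bases before the start, TGATGTCA in Tnp1, 94 to 87 bases before it, and TGAGGTCA in Prm3, 60 to 53 bases before it. The windows of Prm2, Tnp2 and Tsga8 do not hold these letters. Among all 32851 promoter windows of this length, 2460 do (7.49%). Prm1 and Tnp1 (with a match) and Prm2 and Tnp2 (without) all fell in later round spermatids against VC-T 2-3, and the match did not divide the genes by their change.

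The same 4 genes, Prm1, Prm2, Tnp1 and Tnp2, were lower against VC-T 2-3 in every stage tested, spermatogonia included. Prm1 had 164, 35.9 and 71.8 CPM in spermatogonia of T, 131 CPM in VC-T 1 and 2246 and 5520.4 CPM in VC-T 2 and VC-T 3. In pachytene spermatocytes it had 70.2, 18.1 and 52.0 CPM in T, 70.1 CPM in VC-T 1 and 1179 and 1824 CPM in the others. T and VC-T 1 were thus alike low, and VC-T 2 and VC-T 3 high, in stages that precede the known onset of protamine transcription. The 50 genes most particular to late spermatids took 0.199% to 0.378% of all UMIs in T, 0.328% in VC-T 1 and 8.62% and 8.47% in VC-T 2 and VC-T 3. When 10% of each library's overall profile was subtracted from every stage, an alternative added after the data were seen, Tnp1 in early round spermatids stood at a log2 fold change of 0.64 against VC-T 2-3 (adjusted p = 0.748, edgeR), and none of the 253 genes of late meiotic spermatocytes passed. In later round spermatids 2574 genes passed under that subtraction.

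**Figure D5:**
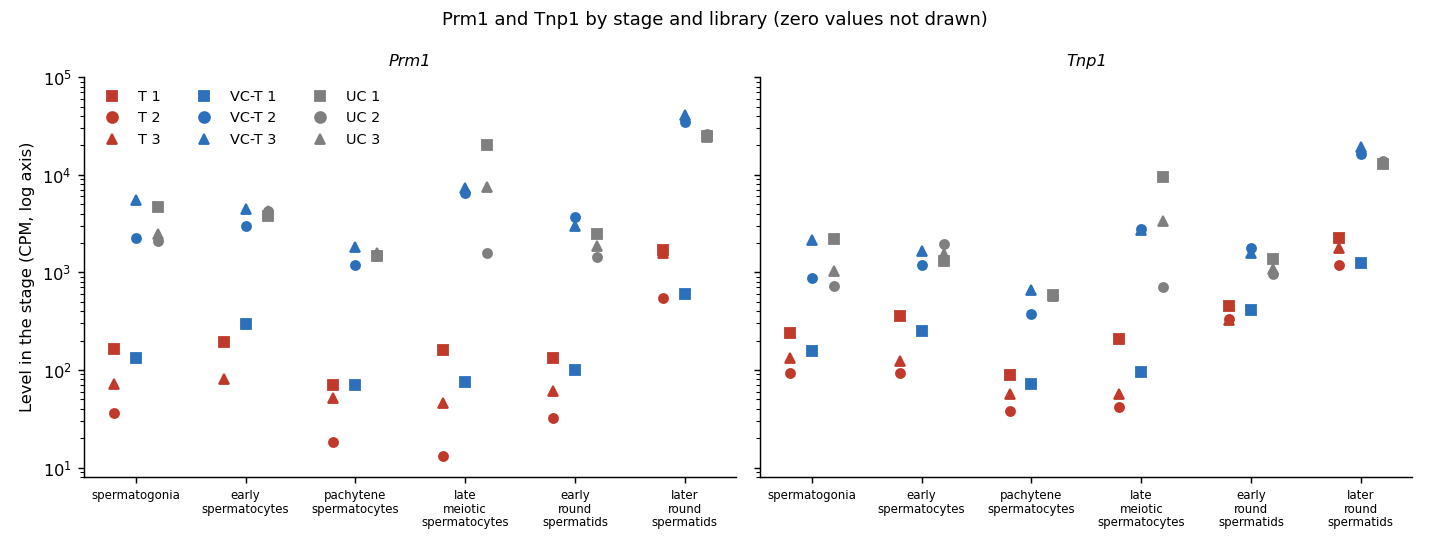
Level of Prm1 and Tnp1 (y axis, CPM on a log scale) by stage (x axis) in each library of T, VC-T and UC, where values of 0 are not drawn. T and VC-T 1 lie together below VC-T 2, VC-T 3 and UC in every stage, from spermatogonia to later round spermatids.

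Against VC-T 1-3, early round spermatids were the only stage in which the list was called, with Prm1, Prm2, Tnp1 and Tnp2 lower, 4 of 6 members. In that stage 0.537% of all genes tested were lower. Prm1 had 133, 32.4 and 61.3 CPM in T, 100.3 CPM in VC-T 1, and 3676 and 2978 CPM in VC-T 2 and VC-T 3 (log2 fold change -4.86 ± 0.94, adjusted p = 0.0226, edgeR). VC-T 1 lay inside the range of T, so this call came from VC-T 2 and VC-T 3. Over the 6 members the median log2 fold change was -2.45, beside -0.01 over all genes tested. Removing any 1 T library ended the calls of Prm1 and Tnp1 (adjusted p from 0.095 to 0.2).

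Later round spermatids held most of the genes that separated T from VC-T 2-3. Cells of this class lay earlier along pseudotime in T and VC-T 1. Their median rank was 38.5, 37.9 and 37.9 in T, 38.0 in VC-T 1 and 43.2 and 43.1 in VC-T 2 and VC-T 3. Of the 1625 lower genes, 584 have their highest reference level in later round spermatids and 408 in late spermatids, where 1743 and 756 of the 10371 genes tested peak. Of the 1051 higher genes 247 peak in early spermatocytes, 223 in early round spermatids, 161 in spermatogonia and 145 in pachytene spermatocytes, beside 1185, 1543, 1189 and 1234 of all genes tested. Klc3, a kinesin light chain of the sperm midpiece, had 5.73, 0 and 6.27 CPM in T, 0.748 CPM in VC-T 1 and 162 and 129 CPM in VC-T 2 and VC-T 3 (log2 fold change -5.10 ± 0.33, adjusted p = 1.66e-11, edgeR). Faiml had 11.9, 11.8 and 15.7 CPM in T, 9.72 CPM in VC-T 1 and 221 and 185 CPM in the others (-4.05 ± 0.21). Sh3bp5, a regulator of JNK and RAB11, and Abra, an actin-binding protein, fell by 4.54 and 4.13 on the log2 scale. VC-T 1 lay with T in each of these genes. Ovol2, a zinc finger repressor, was higher, at 71.1, 72.3 and 68.9 CPM in T, 68.1 CPM in VC-T 1 and 20.1 and 23.4 CPM in VC-T 2 and VC-T 3 (1.70 ± 0.21). Spam1, a sperm hyaluronidase, Mrps12, a mitochondrial ribosomal protein, and Arhgap15, a GTPase-activating protein for Rac, were higher by 1.66, 1.63 and 1.54. When 84 cells per library were drawn at matched pseudotime, 208 genes passed in place of 2676, 90 higher and 118 lower, with fewer cells behind each value.

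Histone and chromatin genes of the later round spermatids moved in both directions against VC-T 2-3. H1fnt, the spermatid linker histone, had 577, 430.1 and 479 CPM in T, 512 CPM in VC-T 1 and 1198 and 1128 CPM in the others (log2 fold change -1.23 ± 0.11, adjusted p = 4.27e-09, edgeR), and H2al2a, a short H2A variant that opens nucleosomes for transition proteins, fell by 2.12. Hist1h1t, the testis linker histone of spermatocytes, was higher, and the other 5 of 8 tested members did not pass. Of 11 chromatin regulators tested, Smarca5, the ISWI ATPase, was higher and Baz1a, its partner in the ACF complex, was lower, while 25.8% of all genes were called in this stage. After subtraction of the estimated free RNA, Smarca5 stood at a log2 fold change of -2.77. Baz1a had 47.7, 34.4 and 34.5 CPM in T, 38.9 CPM in VC-T 1 and 214 and 171 CPM in VC-T 2 and VC-T 3 (-2.23 ± 0.18). Smarca5 had 53.9, 54.5 and 75.2 CPM in T, 48.6 CPM in VC-T 1 and 24.8 and 21.4 CPM in the others (1.29 ± 0.22). For Smarca5 the groups were also apart in early round spermatids, at 145, 163 and 169 CPM in T and 105, 82.2 and 69.5 CPM in VC-T, where the fold change was 0.86 ± 0.14 against VC-T 1-3 (adjusted p = 0.0118, too small a fold to be called) and 1.04 ± 0.12 against VC-T 2-3. Scml2, a Polycomb-group protein of the germ line, was called against VC-T 1-3 in early round spermatids (6.65 to 8.01 CPM in T and 3.03 to 3.69 CPM in VC-T, 1.17 ± 0.27, adjusted p = 0.0443), and not against VC-T 2-3 (adjusted p = 0.0874).

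Other lists in later round spermatids held up to 4 changed members each, in a stage where 10.1% of all genes tested were higher and 15.7% lower. In the piRNA pathway, which silences transposons in the germ line, Tdrd7, Tdrd9, Asz1 and Piwil2 were higher, 4 of 10 tested, with a median log2 fold change of 0.97 beside 0.04 over all genes. Tdrd7 had 70.2, 121 and 103 CPM in T, 92.0 CPM in VC-T 1 and 31.7 and 40.0 CPM in the others. Among 10 division kinases and cyclins, Bub1 (41.5, 37.9 and 40.7 CPM in T, 35.2, 11.8 and 11.9 CPM in VC-T), Bub1b and Cks2 were higher, and Cdkn1a, the inhibitor of cyclin-dependent kinases, was lower, at 4.77, 3.55 and 6.27 CPM in T, 4.49 CPM in VC-T 1 and 44.4 and 32.5 CPM in VC-T 2 and VC-T 3. Of 5 stress genes tested, Herpud1, of endoplasmic reticulum degradation, fell by 4.59, the chaperone Hsph1 fell by 2.78, Atf4 was lower and Hspa5 higher. Eif4e, the cap-binding factor, had 194, 166 and 179 CPM in T, 141 CPM in VC-T 1 and 855 and 826 CPM in the others and was the only one of 11 mRNA storage and translation genes to pass. VC-T 1 lay inside the range of T for Tdrd7, Herpud1 and Hsph1 and below both groups for Eif4e. None of these lists had a member called against VC-T 1-3 in this stage, where 0 of all 9065 genes tested were called. Pachytene markers in later round spermatids summed to 1155, 1187 and 1021 CPM in T, 1163 CPM in VC-T 1 and 408 and 446 CPM in VC-T 2 and VC-T 3, and their part in the higher genes was not tested.

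BET genes themselves changed little. Brdt had 259, 251 and 265 CPM in pachytene spermatocytes of T and 247, 224 and 207 CPM in VC-T, apart by a log2 fold change of 0.18 ± 0.09 (adjusted p = 0.345, edgeR), and in early round spermatids the groups overlapped at 124 to 131 CPM and 120.2 to 137 CPM. None of Brdt, Brd2 and Brd3 was called against VC-T 1-3 in any stage. Brd2 was called against VC-T 2-3 in later round spermatids, with 73.5, 64.0 and 90.9 CPM in T, 84.5 CPM in VC-T 1 and 32.4 and 37.6 CPM in the others (1.06 ± 0.20, adjusted p = 0.000136), and stood at -0.67 after subtraction of the estimated free RNA. None of the P-TEFb and 7SK genes, whose products hold and release the elongation kinase, was called in any stage with either set of vehicle libraries. Of all genes tested, 0 to 0.867% were called by stage against VC-T 1-3 and 2.41% to 25.8% against VC-T 2-3, so few calls were to be had against VC-T 1-3.

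Among the genes that BET inhibitors raise in other cell types, Zmynd8, a reader of histone marks, was the only one called. The call was in later round spermatids against VC-T 2-3, where 10.1% of all genes tested were higher. Zmynd8 had 11.5, 9.48 and 9.40 CPM in these cells of T and 4.49, 3.31 and 3.96 CPM in VC-T, with no overlap. The T 3 value comes from 90 cells with a mean of 2971 UMIs, and so from few UMIs of the gene. The log2 fold change was 1.54 ± 0.40 against VC-T 2-3 (adjusted p = 0.00308, edgeR) and 1.40 ± 0.32 against VC-T 1-3 (adjusted p = 0.197). Hexim1, the inhibitor of P-TEFb that is often used as a marker of BET inhibition, had 9.74, 12.0 and 11.0 CPM in pachytene spermatocytes of T and 8.03, 5.14 and 6.81 CPM in VC-T. These values were apart, with a log2 fold change of 0.87 ± 0.25 against VC-T 2-3 (adjusted p = 0.0154, too small a fold to be called) and 0.68 ± 0.21 against VC-T 1-3 (adjusted p = 0.189). Serpini1 in pachytene spermatocytes had 2.97 to 4.06 CPM in T and 2.92 to 4.53 CPM in VC-T, which overlapped. Of the genes that BET inhibitors lower elsewhere, Ccr2 was called lower in later round spermatids against VC-T 2-3 (log2 fold change -1.82 ± 0.40, adjusted p = 0.000716, edgeR). In that fit 15.7% of all genes tested were lower. Ccr2 had 3.34, 13 and 3.13 CPM in T and 12.7, 23.2 and 18.2 CPM in VC-T, which overlapped over all 6 libraries. Its T 3 value also rests on few UMIs. Myc had no UMIs in pachytene spermatocytes of T and 0 to 0.257 CPM in VC-T, too few to compare.

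The study's list of BRDT-bound genes in spermatids was chosen on these samples and is not independent evidence of a direction. In later round spermatids 31 of its 46 members were lower and 1 was higher against VC-T 2-3, beside 15.7% and 10.1% of all genes tested, with a median log2 fold change of -1.40 beside 0.04. Spata3, a spermatogenesis-associated gene, had 435, 380.3 and 379 CPM in T, 395 CPM in VC-T 1 and 1079.6 and 1081 CPM in the others. Spem1, needed for removal of the spermatid cytoplasm, had 84.5, 81.8 and 90.9 CPM in T, 67.3 CPM in VC-T 1 and 290.0 and 263 CPM in VC-T 2 and VC-T 3. Against VC-T 1-3, 0 of 42 members tested were called by edgeR, with 34 at an unadjusted p under 0.05 and a median of -1.12. Of all 9065 genes tested in that fit, 0 were called and 1967 had an unadjusted p under 0.05. From the study's list for spermatocytes, chosen in the same way, 14 members were tested in pachytene spermatocytes against VC-T 1-3. Pgf, a growth factor of the VEGF family, was the only one called, and it was higher. Of all genes tested there, 0.12% were called higher. Pgf had 13.7, 14.3 and 11.9 CPM in T and 4.66, 5.14 and 4.21 CPM in VC-T, with no overlap (1.51 ± 0.19, adjusted p = 0.0172), and removing any 1 of the 5 libraries other than VC-T 1 ended the call (adjusted p from 0.062 to 0.11).

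In pachytene spermatocytes against VC-T 2-3, the genes that met the naming rule included Ube2e2 and Fbxl17, which were higher, and Dusp19 and 4930522O17Rik, which were lower. Fbxl17, an F-box protein of ubiquitin ligases, had 72.6, 60.6 and 75.5 CPM in T, 48.1 CPM in VC-T 1 and 26.7 and 22.7 CPM in the others (log2 fold change 1.46 ± 0.13, adjusted p = 1.77e-06, edgeR). Here VC-T 1 lay between T and the other vehicle libraries. Of 15 meiotic recombination genes, Hfm1, a helicase for crossovers (22.8, 15.6 and 18.2 CPM in T, 17.8, 9.77 and 6.48 CPM in VC-T), and Mcmdc2 (11.1, 7.27 and 8.91 CPM and 8.68, 5.14 and 3.57 CPM) were higher against VC-T 2-3, where 5.67% of all genes were. None of the list was called against VC-T 1-3, where 0.208% of all genes tested were. The 8 synapsis and axis genes tested held no call against VC-T 2-3, where 7.23% of all genes were called, with a median log2 fold change of -0.01 beside 0.02 over all genes. Pmaip1, which encodes the p53 target NOXA, had 3.86, 2.45 and 2.97 CPM in T and 1.04, 0.514 and 1.30 CPM in VC-T, apart in all 6 libraries (1.82 ± 0.56 against VC-T 2-3, adjusted p = 0.0233, and 1.69 ± 0.42 against VC-T 1-3, adjusted p = 0.122). Round spermatid genes such as Spaca4 (32.2, 20.8 and 19.7 CPM in T, 34.6, 5.92 and 4.54 CPM in VC-T) stood among the 682 higher genes, of which 219 peak in early round and 153 in later round spermatids (1123 and 885 of the 12038 genes tested), while the round spermatid markers in pachytene spermatocytes summed to 187, 110.1 and 146 CPM in T, 175 CPM in VC-T 1 and 33.4 and 35.3 CPM in the others. Their part in these calls was not tested.

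Spermatogonia gave no gene against VC-T 1-3. Against VC-T 2-3, 6 of 13 acrosome genes were higher, beside 2.27% of all genes tested (median log2 fold change 1.29 beside 0.01 over all genes tested), as were 4 of 15 sperm tail and sheath genes. Acrbp, of the acrosomal matrix, had 125, 110.1 and 103 CPM in T, 113 CPM in VC-T 1 and 35.9 and 45.1 CPM in VC-T 2 and VC-T 3. Zpbp2, a zona pellucida binding protein, had 128, 79.0 and 92.3 CPM in T and 70.4, 26.7 and 37.9 CPM in VC-T. Of the 211 higher genes, 46 peak in pachytene spermatocytes, 42 in late meiotic spermatocytes, 68 in early and 25 in later round spermatids, beside 974, 461, 661 and 477 of the 9297 tested. Round spermatid markers in spermatogonia summed to 519, 263 and 343 CPM in T, 397 CPM in VC-T 1 and 105 and 152 CPM in the others, so they moved with these genes, and their part was not tested. The naming rule gave 4930469K13Rik, Bc1, Tcte3 and Ptcra among the higher genes and Hist1h4d as the only lower gene, at 47.3, 112 and 71.8 CPM in T and 141, 170.4 and 126 CPM in VC-T, which were apart (-1.03 ± 0.26, adjusted p = 0.0275 against VC-T 2-3 and 0.245 against VC-T 1-3, edgeR). Bc1, a small cytoplasmic RNA, had 544, 247 and 277 CPM in T, 685 CPM in VC-T 1 and 92.7 and 55.9 CPM in VC-T 2 and VC-T 3.

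Early spermatocytes of T were few, and the UMIs of 12 to 23 cells stand behind each value. Stra8, the retinoic acid target that starts meiosis, had 1074, 1258 and 613 CPM in T, 1517 CPM in VC-T 1 and 386 and 356 CPM in the others (log2 fold change 1.5 ± 0.34 against VC-T 2-3, adjusted p = 0.0032, edgeR). Auts2, Sdk1 and Eml5 were also higher against VC-T 2-3. Sycp3, of the lateral element, had 1334, 932 and 695 CPM in T, 589.8 CPM in VC-T 1 and 2056 and 2469.8 CPM in VC-T 2 and VC-T 3 (-1.06 ± 0.27). Rexo5, Atp6v0b, Cks2 and Cenpp were lower, and Cenpp, a centromere protein, had 228, 139.7 and 286 CPM in T and 421, 799 and 958 CPM in VC-T, with T apart from all 3 (-1.70 ± 0.40 against VC-T 1-3, adjusted p = 0.0512). The chaperone Hspa5 had 781, 652 and 981 CPM in T and 1432, 2766 and 1817 CPM in VC-T, also apart (-1.26 ± 0.31, adjusted p = 0.0512). Spermatogonial markers in these cells, Stra8 among them, summed to 2089, 2271 and 1963 CPM in T, 2222 CPM in VC-T 1 and 1114 and 754 CPM in the others. The sum thus holds the called gene Stra8 itself, and the part of the markers in the calls was not tested.

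In late meiotic spermatocytes 201 of the 247 lower genes peak in late spermatids, as do 570 of the 10487 genes tested. Late spermatid markers in this stage summed to 563, 227 and 242 CPM in T, 341 CPM in VC-T 1 and 2759 and 1254 CPM in VC-T 2 and VC-T 3. Of the 4 genes that met the naming rule, Spata19, Spaca9, Cmc2 and Riiad1, all lower, only Cmc2 and Riiad1 kept T apart from all 3 vehicle libraries. Of all genes tested in this stage, 12.6% were apart in either direction. Cmc2, a factor of cytochrome c oxidase biogenesis, had 61.9, 70.1 and 59.0 CPM in T and 113, 113 and 161 CPM in VC-T (log2 fold change -1.07 ± 0.19 against VC-T 2-3, adjusted p = 0.0139, and -0.99 ± 0.17 against VC-T 1-3, adjusted p = 0.28, edgeR).

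The Y-linked share of UMIs separated T from VC-T in early and later round spermatids, and the mitochondrial share did so in later round spermatids. UMIs per cell and the X-linked share of pachytene spermatocytes overlapped. Mean UMIs per pachytene spermatocyte were 6158, 5926 and 4081 in T and 3817, 30654 and 9701 in VC-T, which overlapped (exact two-sided permutation p = 0.4). X-linked genes, which are silenced in pachytene cells, took 0.0583 to 0.0989% of UMIs there in T and 0.0470 to 0.0857% in VC-T (exact permutation p = 0.4). Y-linked genes took 0.0677%, 0.0655% and 0.0686% of the UMIs of early round spermatids in T and 0.0546%, 0.0580% and 0.0593% in VC-T, and 0.0666 to 0.0733% against 0.0388 to 0.0590% in later round spermatids. Mitochondrial transcripts took 0.104%, 0.0883% and 0.142% of the UMIs of later round spermatids in T and 0.0525%, 0.0565% and 0.0546% in VC-T. In each of these round spermatid comparisons T lay wholly above VC-T with VC-T 1 included, at the smallest p that 3 against 3 allow (exact permutation p = 0.1, or 0.3 after Benjamini-Hochberg adjustment over the stages). The mitochondrial share of early round spermatids was 0.438%, 0.386% and 0.468% in T and 0.298%, 0.755% and 0.346% in VC-T, which overlapped. Over all cells of a library its median was 0.960%, 1.12% and 1.28% in T and 0.731%, 0.333% and 0.119% in VC-T. The part of this level of the whole library in the shares of single stages was not tested.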

How the data were processed

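Testes of 6 mice, 3 given JQ1 (T) and 3 given vehicle (VC-T), were compared as single-cell libraries, grouped by their titles. The values are counts of UMIs per gene and cell that the authors deposited as filtered matrices of 32285 genes. Per the labels' processing notes they came from Cell Ranger 3.0.0 on mm10, while the matrix headers name 7.0.0, and whether introns or strand entered the counting is not given in the sources used here. The authors' own steps of ambient removal (SoupX), doublet calling (DoubletFinder) and clustering (Seurat) come after these counts and were not used.

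Cells were kept from 500 genes and 1000 UMIs up and below 30% mitochondrial UMIs. Doublets were taken to be the top 5.4% of each library by simulated-doublet score and were left out. Reference cells from untreated and recovery-vehicle mice were clustered (scanpy 1.11.5, leidenalg 0.10.2, 2000 variable genes, 30 components, resolution 1.2), giving 25 clusters, of which 2 stayed unnamed. Cells of T and VC-T took the class of their 15 nearest reference cells, and round spermatids were split at a pseudotime rank of 36.1. UMIs were summed per library and stage where each library had at least 10 cells. Sums were scaled by TMM, filtered by expression and tested with edgeR 4.0.16 (quasi-likelihood, R 4.3.3) with Benjamini-Hochberg adjustment. CPM use the TMM-scaled stage total of a library, and marker sums use its plain UMI total. Shares were compared by exact permutation over libraries. Intervals and floors cover counting error only.

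Genes were named when called, at 50 CPM or more in the mean, with the 4 largest changes in each direction and stage, beside 22 gene lists. Members and lists were chosen with earlier results of these data known. DESeq2 1.42.0, other scaling, no filter, a replicate block, each library left out, free RNA subtraction, matched pseudotime, 50 neighbours and no doublet removal were tried. On simulated data 91 to 100 of 100 genes changed 4-fold were recovered, except in early spermatocytes (52 against VC-T 1-3 and 58 against VC-T 2-3). Of those changed 2-fold, the size of the fold threshold, 12 to 44 of 100 were recovered. The simulated libraries shared a common mean profile and a fixed spread, so none stood apart as VC-T 1 does. These rates therefore do not measure the power of the fits against VC-T 1-3. Some genes that met these rules are not reported here.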

Additional observations from a re-analysis of the deposited data

How the results depend on the processing

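Counts of changed genes moved with several settings. Against VC-T 1-3 the counts of changed genes ranged without 1 library from 0 to 264 in spermatogonia, 0 to 39 in early spermatocytes, 2 to 870 in pachytene spermatocytes, 0 to 253 in late meiotic spermatocytes, 0 to 301 in early round and 0 to 2676 in later round spermatids, with each highest count reached without VC-T 1. Against VC-T 2-3 they ranged from 97 to 263, 5 to 137, 507 to 1074, 60 to 687, 102 to 1001 and 2168 to 2750 in the same order. The late meiotic share ranged from -4.96 to 5.53 percentage points (T minus VC-T), and turned positive without T 2 (0.811), T 3 (1.83) or VC-T 2 (5.53).

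Against VC-T 1-3, with no filter on low counts 137, 13, 246, 390, 378 and 1238 genes passed in the 6 stages in order. DESeq2 gave 75 in pachytene spermatocytes, 2 in late meiotic spermatocytes and 155 in later round spermatids. Estimated free RNA subtraction gave 6 in pachytene spermatocytes and 0 in early round spermatids, and subtraction of 10%, chosen after seeing the data, 15 and 62. Matched pseudotime gave 5 in spermatogonia, 5 in late meiotic spermatocytes and 50 in later round spermatids. In early spermatocytes no doublet removal gave 1 and 50 neighbours gave 4.

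Against VC-T 2-3, DESeq2 gave 87, 19, 558 and 198 genes in spermatogonia, early spermatocytes, pachytene spermatocytes and early round spermatids. No filter gave 64, 587 and 665 in early spermatocytes, late meiotic spermatocytes and early round spermatids. No doublet removal gave 540 and 733 in spermatogonia and late meiotic spermatocytes, and 50 neighbours 70 and 93 in early and late meiotic spermatocytes. Estimated subtraction gave 73, 549 and 959 in early spermatocytes, pachytene spermatocytes and early round spermatids, and 10% gave 121, 0 and 28 in spermatogonia, late meiotic spermatocytes and early round spermatids. Matched pseudotime gave 15, 4, 193, 46, 121 and 208 in order. UC 1-3 in place of VC-T 2-3, also chosen after seeing the data, gave 72, 281 and 0 in spermatogonia, early and late meiotic spermatocytes.

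Single genes that turned direction were U2af1 in early round spermatids (-0.34, estimated subtraction, VC-T 1-3), Brd2 (-0.67) and Smarca5 (-2.77) in later round spermatids (estimated subtraction, VC-T 2-3), Brca2 in early spermatocytes (-0.14, matched pseudotime), and under 10% subtraction Prm1 in pachytene spermatocytes (10.3, VC-T 2-3), Tnp1 in early round spermatids (0.33 against VC-T 1-3 and 0.64 against VC-T 2-3) and Tnp2 there (0.0032, VC-T 1-3). The causes were not tested.

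The titles number the replicates of each group and name no pairs, so the main fits used no pairing. Correlations of same-numbered libraries were 0.24, 0.18 and 0.07 in spermatogonia and 0.31, 0.28 and -0.08 in pachytene spermatocytes. In late meiotic spermatocytes they were -0.44, -0.28 and 0.08. Such values cannot show whether the mice were paired. With the replicate block, 33 genes passed in spermatogonia and 67 in pachytene spermatocytes against VC-T 1-3, and 169 in spermatogonia (88 higher and 81 lower) and 984 in late meiotic spermatocytes against VC-T 2-3. With 3 mice against 3, and 12 to 23 early spermatocytes per T library, small differences were not detectable.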

Other observations

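Genes of sperm energy metabolism and of the niche response were also measured. Ldhal6b, a testis lactate dehydrogenase, had 270.5, 175 and 154 CPM in spermatogonia of T, 291 CPM in VC-T 1 and 66.1 and 66.8 CPM in VC-T 2 and VC-T 3. It was the only one of 6 sperm glycolysis isoenzymes called there against VC-T 2-3 (log2 fold change 1.60, edgeR). In that fit 2.27% of all genes tested were higher. Sohlh1, a spermatogonial transcription factor, was at 0 in later round spermatids of all 3 T libraries and of VC-T 1 and at 10.6 and 8.32 CPM in VC-T 2 and VC-T 3, with 8.45 to 12.3 CPM in UC. Pachytene spermatocytes had 1.45%, 1.47% and 1.57% mitochondrial UMIs in T and 1.41%, 1.26% and 1.354% in VC-T, with no overlap (exact two-sided permutation p = 0.1, adjusted 0.3). The median over all cells of a library was also higher in T, and its part was not tested.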
